A study of Mus musculus with 16 samples.

Results

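Kdm5C was mapped by chromatin immunoprecipitation and sequencing (ChIP-seq) in adult male mouse hippocampus, with 1 library from mice lacking Kdm5c (KO) and 1 library from wild type littermates (WT). All regions of the deposited Kdm5C files were used with no selection among them: 2320 with signal in WT and 1 with none. The same regions also carry an H3K4me1 value from 1 KO and 1 WT library. These 4 libraries came from mice 2 to 4 months old on a pure C57BL/6J background, without the novelty exposure described below. Each library was a pool of hippocampi from 2 mice, so a group is represented by a single pool and no difference in Kdm5C or H3K4me1 between KO and WT has a replicate check. H3K4me3 was profiled in 12 further libraries, 2 per group, at 35996 distinct regions. Their groups were KO and WT mice kept under standard conditions, KO and WT mice after 1 h in a novelty box, and a line that the labels call ifKO with its controls (ifWT). The KO and WT mice of the H3K4me3 libraries had a mixed F1 background of C57 and 129, whereas ifKO and ifWT had the pure one. Mice of all 12 H3K4me3 libraries were also 2 to 4 months old. The sources used here do not say how the ifKO line was generated or in which cells the gene is lost. The hippocampus holds neurons, glia and vascular cells, and in such bulk tissue a change in the share of a cell type and a change of signal per cell cannot be told apart.

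Kdm5C (also called Jarid1c or Smcx) is a demethylase encoded on the X chromosome that removes methyl groups from lysine 4 of histone H3. Trimethylation of this lysine (H3K4me3) marks the start sites of active genes, and monomethylation (H3K4me1) is common at enhancers. In human patients, mutations of KDM5C cause an X-linked form of intellectual disability. A ChIP signal that disappears in the knockout depends on the target protein, whereas signal that stays in the knockout does not, which is why a KO library serves as the control for the antibody.

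The deposited value per region behaves as a sum of covered bases rather than a number of reads, since small values pile up at multiples of 50. Of the KO values of at most 300 bases and above 0, 446 of 1137 (39.2%) were exact multiples of 50, against 2% for evenly spread values. Values were therefore divided by 50 and are given as read equivalents. The KO library held 17045.5 read equivalents over all regions and the WT library held 76708.8. Regions were 130 to 1441 bp wide, with a median of 354 bp. Total reads per library are unknown for these files, so KO and WT were compared without scaling, and intervals (exact, 95%) cover counting error only.

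The 8 promoters below carry the range of the Kdm5C signal: starts among the densest in WT (Zfp280d, Micu2, Zcwpw1, Eif5a2), a strong and wide one (Capn10), one with no signal in KO (Ebna1bp2) and those where KO was close to WT (Jarid2, Odr4). Each is the RefSeq window from 250 bases before to 50 bases after the gene start on build GRCm38.p6, printed 5′ to 3′ on the strand of the gene. Capitals mark exact matches, on either strand, to CCGGAAG (ETS family), GCGGGAA (E2F), AAGATGGCG (YY1), CACGTG (E-box), TGACGTCA (CRE) or GCGCATGCG (NRF1). None of these strings contains another.
Zfp280d, chr9:72274638-72274937, plus strand: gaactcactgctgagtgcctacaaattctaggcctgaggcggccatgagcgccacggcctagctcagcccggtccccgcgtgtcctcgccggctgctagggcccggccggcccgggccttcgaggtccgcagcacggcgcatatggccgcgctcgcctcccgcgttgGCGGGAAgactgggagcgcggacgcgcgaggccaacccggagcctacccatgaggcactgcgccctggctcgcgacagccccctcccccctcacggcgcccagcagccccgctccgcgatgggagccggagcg
Micu2, chr14:57999213-57999512, minus strand: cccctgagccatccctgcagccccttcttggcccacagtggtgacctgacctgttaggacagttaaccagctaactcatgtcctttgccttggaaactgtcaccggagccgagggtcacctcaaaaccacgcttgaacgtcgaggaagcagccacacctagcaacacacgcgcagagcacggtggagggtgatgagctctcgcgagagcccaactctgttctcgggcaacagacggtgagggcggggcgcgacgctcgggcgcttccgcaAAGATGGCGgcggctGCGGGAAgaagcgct
Zcwpw1, chr5:137787552-137787851, plus strand: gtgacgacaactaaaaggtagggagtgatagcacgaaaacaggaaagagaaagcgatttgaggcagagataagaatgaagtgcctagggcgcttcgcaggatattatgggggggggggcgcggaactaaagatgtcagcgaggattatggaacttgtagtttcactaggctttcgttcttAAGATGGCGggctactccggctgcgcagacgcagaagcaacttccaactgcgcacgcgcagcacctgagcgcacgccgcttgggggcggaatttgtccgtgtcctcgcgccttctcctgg
Capn10, chr1:92934158-92934457, plus strand: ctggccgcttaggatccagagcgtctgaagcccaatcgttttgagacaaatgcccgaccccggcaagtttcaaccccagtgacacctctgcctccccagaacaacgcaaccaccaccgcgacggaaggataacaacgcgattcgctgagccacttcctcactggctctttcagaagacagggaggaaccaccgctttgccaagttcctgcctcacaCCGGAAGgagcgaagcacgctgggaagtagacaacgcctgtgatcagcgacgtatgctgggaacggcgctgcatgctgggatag
Eif5a2, chr3:28781027-28781326, plus strand: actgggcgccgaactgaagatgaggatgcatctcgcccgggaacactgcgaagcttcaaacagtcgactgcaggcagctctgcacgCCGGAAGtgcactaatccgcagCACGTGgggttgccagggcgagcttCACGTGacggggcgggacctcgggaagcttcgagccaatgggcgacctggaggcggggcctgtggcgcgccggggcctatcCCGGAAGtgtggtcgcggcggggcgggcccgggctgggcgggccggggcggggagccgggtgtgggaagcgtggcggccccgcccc
Ebna1bp2, chr4:118620549-118620848, plus strand: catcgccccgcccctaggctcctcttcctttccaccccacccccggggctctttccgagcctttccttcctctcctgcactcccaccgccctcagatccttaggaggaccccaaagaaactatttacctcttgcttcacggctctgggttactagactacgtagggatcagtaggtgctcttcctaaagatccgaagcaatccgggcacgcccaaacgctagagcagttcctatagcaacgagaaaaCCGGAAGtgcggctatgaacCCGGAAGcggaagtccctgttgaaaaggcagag
Jarid2, chr13:44731021-44731320, plus strand: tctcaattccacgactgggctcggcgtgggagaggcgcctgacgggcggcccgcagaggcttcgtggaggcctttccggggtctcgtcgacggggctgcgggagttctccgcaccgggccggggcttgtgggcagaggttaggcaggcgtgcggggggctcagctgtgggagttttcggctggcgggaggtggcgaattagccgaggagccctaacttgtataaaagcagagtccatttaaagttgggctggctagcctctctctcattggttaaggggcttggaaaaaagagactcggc
Odr4, chr1:150393031-150393330, minus strand: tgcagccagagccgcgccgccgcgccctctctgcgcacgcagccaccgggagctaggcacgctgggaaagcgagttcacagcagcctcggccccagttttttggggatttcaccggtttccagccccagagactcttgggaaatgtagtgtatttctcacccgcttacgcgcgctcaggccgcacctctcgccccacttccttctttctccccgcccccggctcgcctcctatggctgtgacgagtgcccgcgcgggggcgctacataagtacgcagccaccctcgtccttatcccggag
Zfp280d and Micu2 carry an E2F match, Micu2 and Zcwpw1 a YY1 match, and Capn10, Eif5a2 and Ebna1bp2 an ETS match. Jarid2 and Odr4 hold none of these strings in the window. A match describes the letters and is not evidence of binding by the factor.

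Kdm5C signal, unscaled, was lower in KO at nearly all regions. The sum over the regions in KO was 22.2% of that in WT (95% interval 21.9 to 22.6%), or 4.50-fold lower. KO lay below WT at 2312 of the 2320 regions with WT signal, and was at 50% of WT or less at 2150 of all regions (92.6%). It was 2-fold or more above WT at 1 region (0.0431%), where WT was 0. These counts rest on the unscaled values. With both libraries scaled to equal sums over the regions, 587 were 2-fold lower in KO and 259 higher. With equal sums over a weakest quartile group, 452 were lower and 511 higher. That group is not the lowest of the groups by WT signal or WT density described below, and whether KO values entered its choice is not stated here. The median region kept 20.3% of its WT signal, with quartiles of 11.0% and 31.9%. At 527 regions KO held 10% of the WT value or less, and 171 regions kept more than 50%. The KO value was 0 at 114 regions, whereas WT was 0 at 1 region. The second lowest WT value was 4.68 read equivalents. The sources used here do not say how the regions were chosen or whether the WT library took part in that choice, and its part in the difference was not tested. In the same regions the H3K4me1 sum in KO was 61.4% of that in WT (59.7 to 63.1%), with 7921.44 read equivalents in KO against 12903.9 in WT.

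Regions ordered by their density in WT had similar densities in KO. In 4 quartile groups of the regions ordered by WT read equivalents per kb, the median density in KO was 16.2, 16.7, 16.7 and 16.3 per kb from the lowest to the highest group. The corresponding WT medians were 53.8, 71.3, 89.4 and 117 per kb, in values that also set the groups. The signal left in KO ran from 33.05% in the group with least WT density through 25.7% and 21.1% to 14.8% in the densest group, a share whose denominator also set the groups. In groups ordered by total WT signal instead, the signal left was 23.5%, 23.8%, 23.8% and 20.6%. Across regions, the density in KO and the density in WT had a Spearman correlation of 0.03, a description over regions that share both libraries. Total signal per region in WT followed the width of the region (Spearman correlation 0.84).

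**Figure D1:**
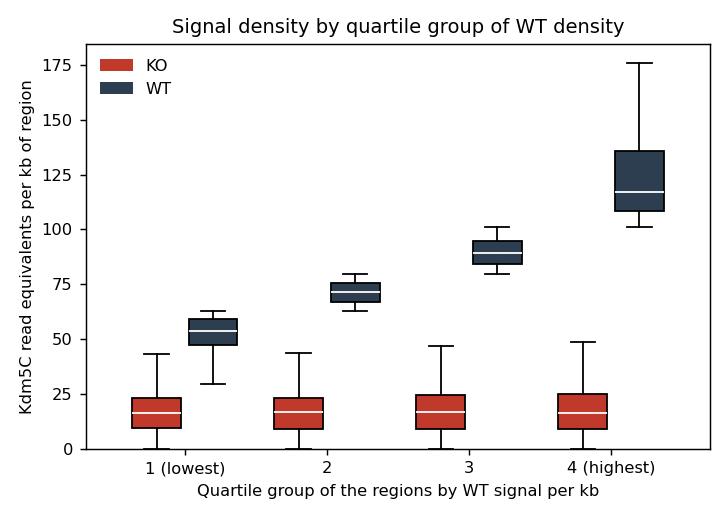
Read equivalents per kb of region in KO (red, left) and WT (dark, right), by quartile group of the regions ordered by WT density. Boxes span the quartiles, white lines are medians and whiskers reach the last value within 1.5 box lengths. The KO medians stay between 16.2 and 16.7 per kb in all 4 groups.

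Kdm5C regions lay at gene starts. In all, 2179 regions (93.9%) were within 2 kb of a gene start, 90 were inside a gene away from its start and 52 between genes. The centre of a region lay a median of 26.5 bp downstream of the nearest annotated start site. For 1623 of 1832 regions with a start site of known strand (88.6%) this distance was within 500 bp. More than 1 protein-coding start was within reach of 361 regions, which include divergent gene pairs such as Pced1a with Vps16, Zcwpw1 with Mepce and Poc1b with Galnt4, and such a signal cannot be given to either gene of the pair. The share of signal left in KO was 22.4% at gene starts (22.0 to 22.7%), 20.4% inside genes (18.8 to 22.1%) and 20.01% between genes (17.7 to 22.6%). At the 31 regions with a tRNA gene within reach it was 30.3% (26.7 to 34.4%), against 22.1% at all other regions (21.7 to 22.5%).

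**Figure D2:**
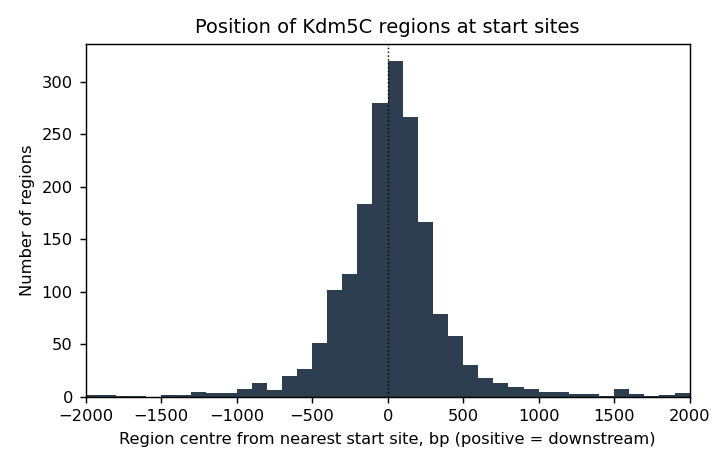
Distance in bp from the nearest annotated start site to the centre of each Kdm5C region, in bins of 100 bp, with downstream distances positive. The regions gather around the start site, with a median distance of 26.5 bp.

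Promoter windows with Kdm5C held several short strings more often than other H3K4me3-marked windows. The string CCGGAAG of ETS factors was found in 30.2% of the 1760 promoter windows that overlap a Kdm5C region, in 13.9% of the 14335 windows that overlap an H3K4me3 region without Kdm5C, and in 8.86% of all 32851 windows. AAGATGGCG (YY1) was found in 4.89%, 2.30% and 1.40% of these windows, in the same order. For CACGTG (E-box) the shares were 15.2%, 9.14% and 7.15%, for GCGGGAA (E2F) 10.2%, 7.96% and 4.60%, for GCGCATGCG (NRF1) 5.80%, 2.99% and 1.75%, and for TGACGTCA (CRE) 4.60%, 2.84% and 1.79%. GGGCGG, the core of SP sites, was common in all H3K4me3-marked windows, at 66.6% with Kdm5C and 62.3% without. CCAAT was found in 36.2%, 36.9% and 37.4% of windows, and TATAAA was rarer in Kdm5C windows (5.34%) than in all windows (13.6%). Kdm5C windows held a median of 25 CpG dinucleotides and a GC content of 62.7%, against 20 and 61.0% in H3K4me3-marked windows without Kdm5C. Shares at matched base composition were not computed, and none are given at matched H3K4me3 strength. H3K4me3 regions with Kdm5C had a median of 72.3 CPM (counts scaled to a common library size), against 6.46 CPM for all tested. Neighbouring windows can belong to the same region, so the shares are given without a test. Among Kdm5C windows, the quartile group with the least signal left in KO had YY1 strings in 5.23% and E2F strings in 13.9%, and the group with the most signal left had them in 2.27% and 9.55%. For NRF1 strings the shares were 5.91% with the least signal left and 6.59% with the most, and for SP strings 68.9% and 67.7%. In the same order they were 18.4% and 13.0% for E-box, 31.4% and 26.8% for ETS and 5.68% and 4.32% for CRE strings. CCAAT was found in 38.9% and 32.3%, and TATAAA in 4.77% and 6.14%. Each of these groups held 440 windows.

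The strongest Kdm5C regions lay at genes of varied function. The highest WT value of all was inside Mga, a gene for a MAX-binding repressor that belongs to the Polycomb complex which silences germline genes. This region (chr2:119872474-119873650, mm10 as in the files) had 21.4 read equivalents in KO and 271.0 in WT, so 7.9% was left (4.7 to 12.1%). A second region covered the start of Mga (chr2:119896972-119897880) and was the next strongest, with 26.8 read equivalents in KO and 195.7 in WT. Mga is on the plus strand, so the first region lies upstream of this start. Its assignment to Mga rests on the wider gene interval of the reference. Klhl35, which encodes a BTB-kelch protein, followed with 21.7 in KO and 195.3 in WT. At Capn10, a calpain protease gene, the values were 26.8 in KO and 188.4 in WT. The start shared by Pced1a and Vps16, a subunit of the tethering complexes of endosomes and lysosomes, had 7.6 in KO and 161.1 in WT. At Ptma (prothymosin alpha) KO had 35.0 and WT 160.7, and at Rnf227 KO had 10.5 and WT 159.3. The 3 remaining regions of the strongest 10 lay at Gm10190, 1700012D14Rik and 1700028E10Rik, with 14.5, 37.7 and 30.0 read equivalents in KO against 163.9, 145.1 and 144.0 in WT. All 10 regions were lower in KO, with 4.7% to 26.0% of the WT signal left.

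Per kb of region the order changed. The densest signal was at Zfp280d, a zinc finger gene, with 32.0 read equivalents per kb in KO and 371.3 per kb in WT. Micu2, a regulator of the mitochondrial calcium uniporter, followed with 30.5 per kb in KO and 366.0 per kb in WT. The start shared by Zcwpw1, a reader of histone methylation needed in meiosis, and Mepce, the enzyme that caps 7SK RNA, had 7.5 per kb in KO and 288.6 per kb in WT. Zfp438 had 4.0 per kb in KO and 265.4 per kb in WT, and Pom121, a nucleoporin gene, 5.2 per kb in KO and 220.7 per kb in WT. Others among the densest 10 were at Rnf227, Mga, Eif5a2 and the start shared by Rad9b and Vps29, with 14.7 to 19.9 per kb in KO against 221.3 to 301.6 per kb in WT.

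Some regions had no detectable signal in KO. Among regions with a summed signal above the median, the lowest KO shares were at Ebna1bp2, Slc2a3, Gnl2 and Deaf1, all at 0 read equivalents in KO. The first shares its region with the start of Cfap57 and Deaf1 with that of Tmem80. In WT they had 45.7 at Ebna1bp2, a gene of ribosome assembly, 33.5 at Slc2a3, the neuronal glucose transporter, 38.8 at Gnl2, a nucleolar GTPase gene, and 34.1 at Deaf1, a transcription factor gene. The Slc2a3 region lies inside the gene, 27039 bp from the nearest gene start, whereas those of Ebna1bp2, Gnl2 and Deaf1 lie at gene starts. Counting error allows a share of up to 8.35% at Ebna1bp2 and up to 11.5% at Slc2a3 and at Deaf1. Tmem179 had 0.16 in KO and 57.7 in WT, and Ythdc1, a nuclear reader of RNA methylation, had 0.34 in KO and 37.7 in WT. Zfp438 kept 1.5% of its signal and Tmem120b 1.6%.

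At the other end, some regions showed about the same signal in KO as in WT. Odr4 and Tpr share a start that had 19.0 read equivalents in KO and 17.2 in WT (110.6%, interval 55.0 to 229%). Jarid2, a subunit of Polycomb complex PRC2 from the same protein family as Kdm5C, had 24.0 in KO and 23.8 in WT (101%, 54.4 to 184%). Nme1, Kmt2c and Poc1b kept 88.8%, 83.1% and 80.3%, and Gm35183 kept 80.6%. Kmt2c encodes a methyltransferase for H3K4. The region in the pseudogene Pisd-ps1 kept 89.9%, with 49.6 in KO and 55.1 in WT. Pisd-ps1 also had the highest H3K4me1 value of all regions in either genotype, 55.8 read equivalents in KO and 44.9 in WT, and it overlapped no H3K4me3 region. A pseudogene shares sequence with its parent gene, and the treatment of reads with several matches was not stated in the sources used here. Among the largest KO values, chosen after the values were seen, were 61.2 at the start shared by Tbc1d17 and Akt1s1, 50.3 at Yy1 and 49.6 at Pisd-ps1, against 95.5, 73.1 and 55.1 in WT. Only 9 regions were not lower in KO. Besides Odr4 and Jarid2 these were at Rfx5 (1.0 in KO, 0 in WT), Gcsh (6.18 in KO, 4.68 in WT), Ampd3 (8.24 in KO, 5.54 in WT), Rapgef6 (10.8 in KO, 10.3 in WT), Atp5b (15.4 in KO, 14.4 in WT), Rbbp6 (15.4 in KO, 14.7 in WT) and Gbe1 (17.0 in KO, 9.88 in WT). The interval of each of these ratios with a WT value above 0 included equal values.

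The Kdm5c gene itself had a region at its start (chrX:152233560-152233765), with 5.0 read equivalents in KO and 17.5 in WT (28.5%, 8.1 to 77.6%). No region was found at Kdm5a, Kdm5b or Kdm5d. The X chromosome as a whole held 11 regions, 1.14 per 100 protein-coding genes, against 8.31 to 14.1 per 100 on the autosomes, and the Y chromosome none. Set against H3K4me3, 11 of 960 H3K4me3 regions on X (1.15%) overlapped a Kdm5C region, against 5.02% to 8.99% on the autosomes. The 11 regions were at Morf4l2, Phf6, Zfp280c, Flna, Pdha1, Zfp300, Fundc1, Eif2s3x, Cdk16, Idh3g (with Ssr4) and Kdm5c. The share of signal left on X was 22.2%. Males carry a single X, and the part of copy number in the small count was not tested.

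Lists of ribosomal, splicing and chromatin genes held Kdm5C regions at a larger share of their members than lists of neuronal genes. Of 21896 protein-coding genes in the RefSeq table, 2422 (11.1%) had a region within 2 kb of the start, and of the 14843 with H3K4me3 there, 2421 (16.3%) did. The lists described next were chosen from general knowledge with earlier results of these data known, and their shares are given without a test. Cytosolic ribosomal protein genes had a region at 30 of 79 (38.0%) and splicing factor genes at 20 of 52 (38.5%). All genes of these 2 lists had H3K4me3 at their start. At the 30 ribosomal protein regions the median was 4.68 read equivalents in KO against 31.7 in WT. Of their summed signal 20.9% was left, near the 22.2% of all regions. All 30 were at 50% of WT or less, as were 92.6% of all regions. Rpl10a, of the large ribosomal subunit, had 15.0 in KO and 93.0 in WT, whereas Rpl3 had 31.0 in KO and 64.3 in WT. The 20 splicing factor regions had medians of 6.75 in KO and 30.5 in WT. The strongest were the start shared by Hnrnpm and Marchf2 with 28.2 in KO and 95.3 in WT, Snrpa (28.3 in KO and 76.2 in WT), which shares its region with BC024978, and Sf3a2 (8.42 in KO and 68.6 in WT), which shares its region with Plekhj1. Complex I of the respiratory chain had 6 of 36 genes with a region, and the proteasome 5 of 32, with Psmb4 highest at 4.0 read equivalents in KO and 62.8 in WT.

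A list of histone H3 methylation enzymes and cofactors, most of them for H3K4, had a region at 8 of 25 genes (32.0%). Setd1a, a methyltransferase for H3K4, had 15.0 in KO and 46.0 in WT. Kdm1a, an H3K4 demethylase gene, had 1.16 in KO and 20.3 in WT. Kdm2a, which encodes a demethylase of another lysine of H3 and shares its region with 9430078G10Rik, had 2.34 in KO and 31.3 in WT. Kmt2b had 7.72 in KO and 19.9 in WT, Rbbp5 5.80 in KO and 22.0 in WT, and Paxip1 0.76 in KO and 20.3 in WT. Kmt2c, with 23.6 in KO and 28.4 in WT, and Kdm5c complete the set. Repressors of germline genes had a region at 6 of 22 (27.3%): Mga, Hdac2, Pcgf6, E2f6, Rybp and Trim28. Mga, Pcgf6, E2f6 and Rybp encode subunits of the same Polycomb complex (PRC1.6). Hdac2 had 13.0 in KO and 76.1 in WT, Pcgf6 6.86 in KO and 41.6 in WT, and Trim28, in a region shared with Gm31649, 4.00 in KO and 30.8 in WT. E2f6 had 2.00 in KO and 28.6 in WT, and Rybp 0 in KO and 23.3 in WT. Over the 6 regions 13.3% of the signal was left in KO (9.9 to 17.9%).

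Germline and meiosis genes themselves had a region at 3 of 48 (6.25%), of which 19 had H3K4me3 at the start. Of these 19, 15.8% had a region, close to the 16.3% of all protein-coding genes with H3K4me3. Zcwpw1 had 2.40 in KO and 92.1 in WT, Tdrkh, a piRNA pathway gene, 21.0 in KO and 57.3 in WT, and Dazl, an RNA-binding protein gene of germ cells, 8.0 in KO and 21.7 in WT. Of 42 synaptic transmission genes only Syn3 (synapsin III) had a region, with 11.6 in KO and 37.7 in WT, although all 42 had H3K4me3 at the start. Activity-induced genes had 3 of 40, namely Rheb (2.00 in KO and 52.4 in WT), Btg2 (3.0 in KO and 38.1 in WT) and Gadd45b (2.00 in KO and 14.7 in WT). Intellectual disability genes had 4 of 36 (11.1%), among them 7.48 in KO and 32.6 in WT at Ube3a, 4.46 in KO and 29.2 in WT at Adnp, and 4.00 in KO and 7.06 in WT at Chd8. None of 36 developmental transcription factor genes had a region, of which 22 had H3K4me3. Among cell type markers, Calb1 of the pyramidal and granule neuron list (1 of 17) and Ntsr2 of the astrocyte list (1 of 10) had a region. None of the interneuron, oligodendrocyte, microglia, vascular or choroid plexus markers had one. The neuron list had H3K4me3 at 15 of its 17 starts, with a median of 55.5 CPM (counts scaled to a common library size), and the choroid plexus and ependyma list at 4 of 9.

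**Figure D3:**
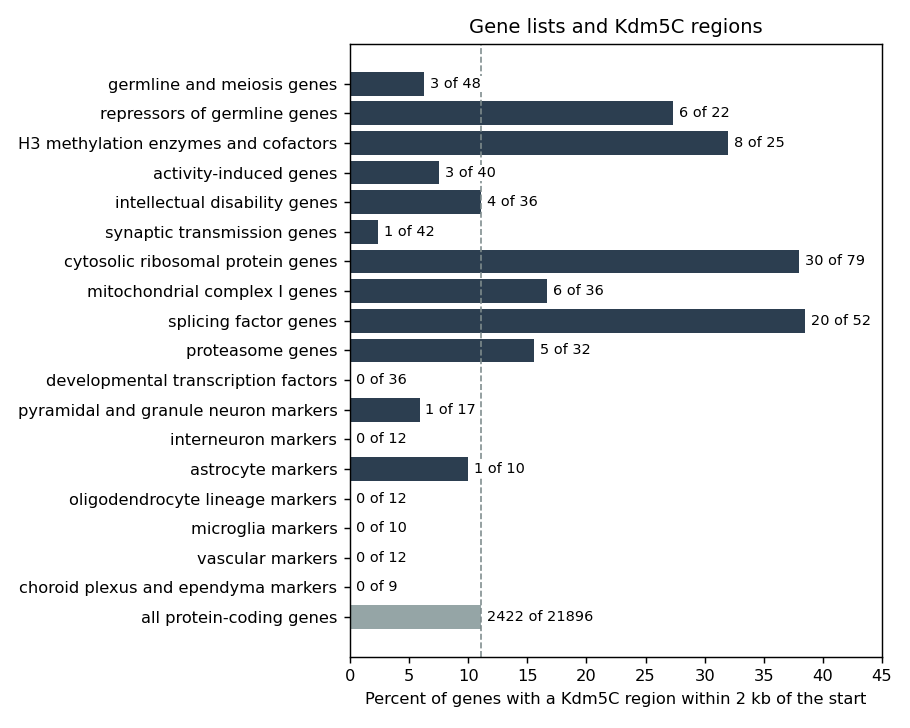
Percent of the genes of each list with a Kdm5C region within 2 kb of the start, with counts beside the bars. The dashed line marks all protein-coding genes (11.1%). Ribosomal protein and splicing factor genes reach 38.0% and 38.5%, and synaptic transmission genes 2.38%.

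H3K4me3, the mark that Kdm5C removes, was measured with replicates in libraries separate from those of Kdm5C. A Kdm5C region overlapped an H3K4me3 region in 2296 cases (98.9%) and none in the other 25, and 2314 tested H3K4me3 regions overlapped Kdm5C. These were strong regions, with a median of 72.3 CPM against 6.46 CPM for all 35955 tested. Under standard conditions 231 of the 2314 were higher in KO than in WT (9.98%, background 9.74%) and 150 were lower (6.48%, background 3.67%), by edgeR's quasi-likelihood test at an adjusted p of 0.05. The share of rises at Kdm5C regions was thus near that of all regions. Among strong regions alone (above 5 on the log2 CPM scale) 155 of 2109 with Kdm5C were higher (7.35%) and 149 lower (7.06%), against 306 (3.38%) and 975 (10.8%) of 9056 strong regions without Kdm5C. Among weaker regions 76 of 205 with Kdm5C were higher (37.1%), against 2964 of 24585 without (12.1%). With library totals in place of TMM scaling the split at Kdm5C regions was 299 higher and 30 lower. Leaving out a library moved both counts, to 149 higher and 42 lower without KO library 1, 183 and 45 without KO library 2, 137 and 34 without WT library 1, and 131 and 11 without WT library 2.

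After novelty, 236 of the 2314 regions were higher in KO (10.2%, background 11.1%) and 244 lower (10.5%, background 5.94%). With library totals these counts were 307 and 86. Without KO novelty library 1 they were 146 and 32, without KO novelty library 2 151 and 53, without WT novelty library 1 169 and 193, and without WT novelty library 2 141 and 21. Among strong regions alone, 7.54% with Kdm5C were higher after novelty and 11.6% lower, against 4.03% and 17.7% without Kdm5C. In ifKO against ifWT, 130 regions were higher (5.62%, background 4.41%) and 37 lower (1.60%, background 0.976%). In that comparison 4.17% of strong regions with Kdm5C were higher and 1.75% lower, against 1.94% and 3.01% of those without. The ifKO counts were 73 higher and 0 lower without ifKO library 1, 125 and 81 without ifKO library 2, 91 and 1 without ifWT library 1, and 75 and 62 without ifWT library 2. Of the 130 rises in ifKO, 101 (77.7%) were also called higher in KO under standard conditions. These 101 were 43.7% of the 231 there, from comparisons that share no library. The overlap over all tested regions is not given, so this sharing cannot be called particular to regions with Kdm5C. Of the falls, 4 were shared, 10.8% of those in ifKO and 2.67% of those in KO. A test of the difference itself, the KO change under standard conditions minus the ifKO change, called 9 of the 2314 regions higher (0.389%, background 0.651%) and 0 lower (background 0.0501%). At an unadjusted p under 0.05 there were 130, and DESeq2 called 3 higher and 0 lower. Without WT standard library 2 the 9 became 1, and without ifKO library 2 they became 14.

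H3K4me3 rose at most of the 10 strongest Kdm5C regions. Under standard conditions 8 of the 10 were higher in KO (background 9.74%) and none was lower. After novelty 8 were higher, and in ifKO 6, again with none lower. At the strongest, inside Mga, H3K4me3 was 75.4 and 73.5 CPM in KO against 48.6 and 47.2 CPM in WT under standard conditions. After novelty it was 73.9 and 74.5 CPM in KO against 47.4 and 48.3 CPM in WT, and in ifKO 70.6 and 69.6 CPM against 56.1 and 53.8 CPM in ifWT. No KO value overlapped a WT value in any of the 3 comparisons, and the log2 changes were 0.64 ± 0.06, 0.63 ± 0.06 and 0.35 ± 0.06 (SE; adjusted p = 6.2e-10, 4.75e-10 and 9.89e-05, n = 2 each). At Klhl35 H3K4me3 was 62.0 and 60.2 CPM in KO against 31.8 and 27.4 CPM in WT under standard conditions. In ifKO Klhl35 had 57.8 and 55.9 CPM, against 37.3 and 34.9 CPM in ifWT. The log2 changes were 1.05 ± 0.07 in KO and 0.66 ± 0.07 in ifKO (adjusted p = 1.03e-12 and 7.95e-08). Ptma had 42.8 and 41.7 CPM in KO against 23.7 and 23.8 CPM in WT, Gm10190 50.9 and 50.3 CPM in KO against 29.7 and 30.5 CPM in WT, and Rnf227 82.3 and 76.5 CPM in KO against 59.4 and 57.9 CPM in WT. In ifKO the call at Rnf227 was lost without ifWT library 2 (adjusted p = 0.0516). The rises at 1700012D14Rik (log2 change 0.20) and 1700028E10Rik (0.19) were small, and their calls were lost without KO library 1 (adjusted p = 0.133 and 0.412), without WT library 1 (0.0951 and 0.164) and without WT library 2 (0.118 and 0.191). Capn10 had 92.6 and 89.6 CPM in KO against 91.2 and 94.9 CPM in WT, and the start of Pced1a and Vps16 had 103.3 and 101.5 CPM in KO against 91.6 and 94.4 CPM in WT (log2 change 0.14, adjusted p = 0.0863).

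The quartile group of regions with the most Kdm5C in WT held the most H3K4me3 rises, a difference between groups given here without a test. In the quartile group with the most WT signal, 96 of 578 tested regions were higher in KO and 13 lower under standard conditions. The background was 9.74% higher and 3.67% lower. In the other 3 groups, from the least WT signal upward, 41, 39 and 52 regions were higher and 41, 52 and 43 lower. These groups held 568, 574 and 574 tested regions. Regions of the strongest group were also the widest, with a median of 649 bp against 163, 284 and 432.5 bp. After novelty the strongest group had 93 higher and 26 lower (background 11.1% and 5.94%), and in ifKO 43 and 3 (background 4.41% and 0.976%). Seen from H3K4me3, regions called higher in KO had a median of 7.0 read equivalents of Kdm5C in KO against 35.6 in WT, with 17.9% of the summed signal left. Regions called lower had 5.0 in KO against 22.3 in WT, with 25.6% left. Those not called had 5.56 in KO against 26.7 in WT, with 22.8% left. Regions called higher had less H3K4me3 (median 41.1 CPM) than regions called lower (91.2 CPM), and 75.4% of them were at a gene start, against 98.0%. Across 2284 regions the Spearman correlation between WT Kdm5C signal and the H3K4me3 change was 0.19 under standard conditions, 0.20 after novelty and 0.17 in ifKO. With the WT H3K4me1 value of the same regions it was 0.31, 0.30 and 0.22, and WT H3K4me1 and WT Kdm5C had a correlation of 0.54 with each other. The correlation with the H3K4me3 level itself was -0.42, -0.45 and -0.40, as a description of regions that share libraries. The parts of H3K4me3 strength and of H3K4me1 in the relation with Kdm5C were not tested.

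The largest rises of H3K4me3 at Kdm5C regions were shared by KO and ifKO. At C1qtnf4, which encodes a secreted C1q and TNF related protein, H3K4me3 was 39.2 and 42.6 CPM in KO against 16.9 and 16.0 CPM in WT, and 29.9 and 36.1 CPM in ifKO against 18.4 and 18.4 CPM in ifWT. The log2 changes were 1.32 ± 0.10 and 0.84 ± 0.10 (adjusted p = 5.83e-12 and 3.74e-07). At the start shared by Cntnap1, a contactin-associated protein gene, and the chemokine receptor gene Ccr10, KO had 16.3 and 16.3 CPM and WT 7.5 and 5.6 CPM. Nipal2 had 37.6 and 41.7 CPM in KO against 17.97 and 15.9 CPM in WT, and 47.2 and 45.3 CPM in ifKO against 24.1 and 23.3 CPM in ifWT. Kcnk12, a potassium channel gene, Arhgap27, a GTPase activator gene, and C2cd4d behaved alike, with log2 changes of 1.17, 1.03 and 1.12 in KO and of 0.92, 1.02 and 0.98 in ifKO. In all 6 of these regions no KO or ifKO library overlapped its controls. The regions were chosen as the largest called rises of these same comparisons, so this separation follows largely from the choice. Their Kdm5C signal was 1.06 to 9.58 read equivalents in KO against 18.7 to 59.9 in WT.

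Falls were smaller. Prmt5, an arginine methyltransferase gene, had 4.9 and 5.1 CPM in KO against 7.1 and 7.7 CPM in WT under standard conditions (log2 change -0.56 ± 0.16, adjusted p = 0.0169). Leaving out any of the 4 libraries ended this call, with an adjusted p of 0.105 without KO library 1, 0.0547 without KO library 2, 0.054 without WT library 1 and 0.162 without WT library 2. Cfl2, a cofilin gene, had 94.8 and 94.3 CPM in KO against 128.3 and 138.6 CPM in WT (-0.50 ± 0.08, adjusted p = 6.98e-05). Appbp2 had 103.6 and 107.9 CPM in KO against 128.1 and 124.0 CPM in WT (-0.25 ± 0.05, adjusted p = 0.000714). Glo1, the glyoxalase gene, had 47.2 and 50.6 CPM in KO against 56.3 and 63.8 CPM in WT (-0.30 ± 0.08, adjusted p = 0.00927), a call lost without KO library 1 (0.11) and without WT library 2 (0.254). None of these 4 regions was called in ifKO or after novelty. After novelty the largest falls were at Tex30, Arglu1, Ppp4r2 and the start shared by Chtf8, Derpc and Utp4, with log2 changes of -0.30, -0.29, -0.28 and -0.27. In ifKO they were at Tfdp1, Rars, Slk and Fitm2, with log2 changes of -0.30, -0.29, -0.29 and -0.28, and all 4 calls were lost without ifKO library 1 (adjusted p = 0.454, 0.218, 0.0875 and 0.356). Without ifWT library 1 the calls at Tfdp1, Rars and Fitm2 were lost (0.248, 0.126 and 0.13). Tex30 was not called without WT novelty library 2 (adjusted p = 0.0821), nor Ppp4r2 without KO novelty library 2 (0.103) or WT novelty library 1 (0.0997).

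**Figure D4:**
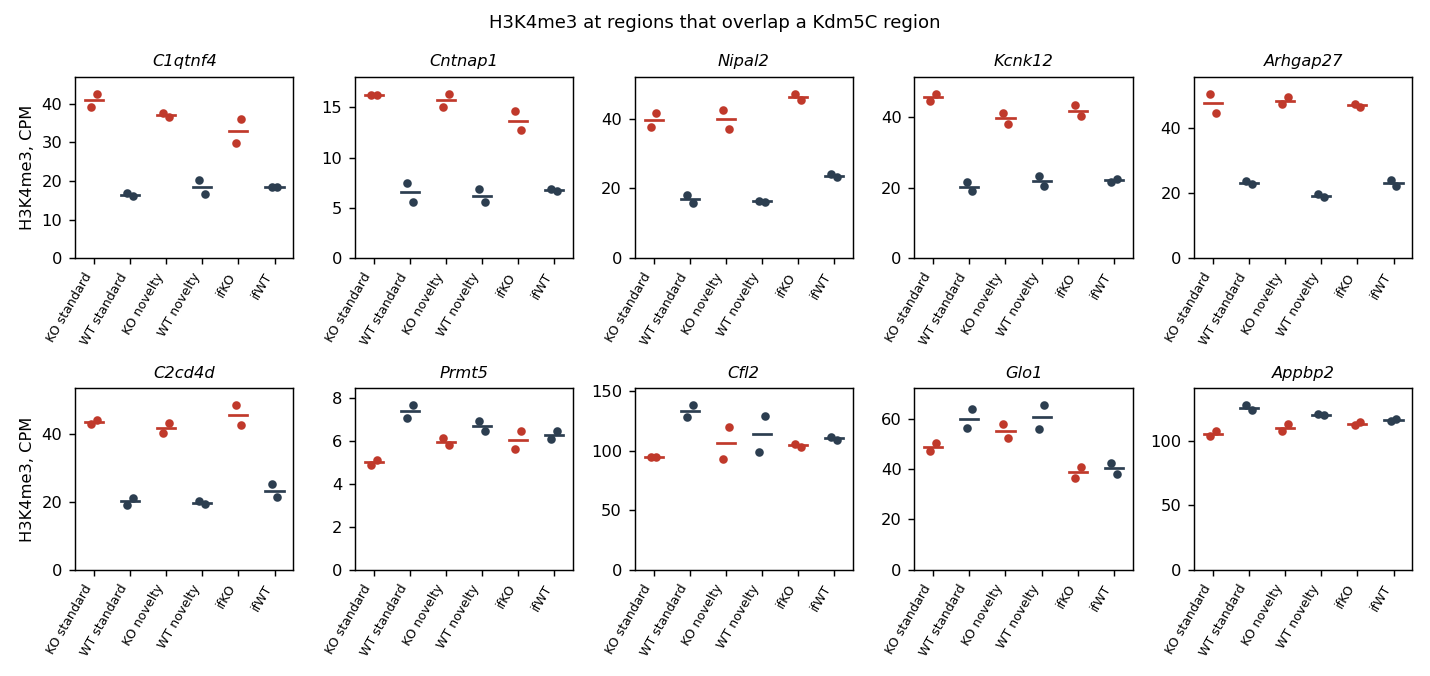
H3K4me3 in CPM at 10 regions that overlap a Kdm5C region, in each of the 12 libraries (points) with group means (lines), KO or ifKO in red left of WT or ifWT in dark. In the first 6 genes KO and ifKO libraries lie above their controls. At the last 4 genes KO lies below WT under standard conditions.

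Among the lists, members with Kdm5C and a higher H3K4me3 in KO included the start of Mga, with 58.3 and 58.3 CPM in KO against 45.6 and 44.9 CPM in WT, and 49.8 and 50.8 CPM in ifKO against 41.0 and 36.4 CPM in ifWT (log2 changes 0.37 and 0.38, adjusted p = 0.000229 and 0.000652). Kdm2a had 54.0 and 57.5 CPM in KO against 41.8 and 40.6 CPM in WT (0.44, adjusted p = 2.25e-05). Rheb, a GTPase gene upstream of mTOR, had 14.3 and 15.6 CPM in KO against 8.6 and 7.8 CPM in WT (0.87, adjusted p = 4.05e-06). Rybp (0.47), Gadd45b (0.31), Ntsr2 (0.46) and the region at Ndufa13 and Tssk6 (0.32) also rose in KO under standard conditions, and Gadd45b was not called without WT library 1 (adjusted p = 0.0704). In ifKO none of these 4 was called (adjusted p = 0.892 at Rybp, 0.416 at Gadd45b, 0.201 at Ntsr2 and 0.159 at Ndufa13), and Rybp was not called after novelty (0.0658). Of the astrocyte list as a whole, 2 of 12 H3K4me3 regions were higher in KO (background 9.74%) and none lower, and in ifKO none was called. Dazl was not called in KO (log2 change 0.24, adjusted p = 0.0704) and rose in ifKO, with 30.7 and 29.0 CPM against 24.0 and 24.6 CPM in ifWT (0.30, adjusted p = 0.0426). Without ifKO library 1 the adjusted p for Dazl was 0.309, without ifWT library 1 0.231, without ifWT library 2 0.0939 and with DESeq2 0.0745. Of 29 ribosomal protein regions tested, 4 were lower in KO under standard conditions (Rpl15, Rpl5, Rps14 and Rps16) and none higher, with a median log2 change of -0.08. After novelty 1 was lower, and in ifKO none. Of 20 splicing factor regions 2 were lower (Hnrnpu and Snrpb) and none higher, with a median of -0.11. After novelty 3 were lower, and in ifKO none. Over all regions 3.67% were called lower under standard conditions, 5.94% after novelty and 0.976% in ifKO, and under standard conditions 7.06% of strong regions with Kdm5C and 10.8% of those without were lower. The median over all 2314 Kdm5C regions was -0.05 and over all regions tested 0.01. Rpl15, whose Kdm5C region also covers the start of Nkiras1, had 98.6 and 98.8 CPM in KO against 115.2 and 117.4 CPM in WT (-0.24, adjusted p = 0.00172). With library totals Rpl5, Rps14, Rps16, Hnrnpu and Snrpb were not called (adjusted p = 0.111, 0.0835, 0.125, 0.08 and 0.146). Without WT library 2 their adjusted p were 0.202, 0.461, 0.196, 0.0846 and 0.184. At Kdm5c itself H3K4me3 was 60.8 and 60.3 CPM in KO against 66.6 and 72.2 CPM in WT (-0.20, adjusted p = 0.0474), and the call was lost with DESeq2 (0.0623) and without any of the 4 libraries (0.061 to 0.397).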

How the data were processed

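Per the file headers the deposited Kdm5C and H3K4me1 files give raw counts, but the values behave as a coverage signal, summed over a set of regions shared by both marks, and were divided by 50 bases per read equivalent. The deposited H3K4me3 files hold read counts per region without normalization. Bowtie2 2.2.9, SAMtools 1.3.1, MACS2 2.1.0, featureCounts, DESeq2 1.10.0 and R 3.3 and builds GRCm38 and mm10 are named in the submitters' processing notes, and no input libraries were used here. No column of per-sample values was left aside.

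Genes came from the RefSeq table of GRCm38.p6 (49997 genes, no strand) and start sites and strand from 32851 promoter windows of the same build. Where a gene had no window, either end counted as a start. Regions within 2 kb of a start were assigned to it, otherwise to the gene that holds them, otherwise to the nearest gene within 50 kb.

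Kdm5C ratios were unscaled, with exact binomial (Clopper-Pearson) intervals at 95% conditional on the sum of both libraries. Groups of 1 library allow no test. H3K4me3 was fitted with edgeR 4.0.16 (R 4.3.3) over all 12 libraries, with TMM scaling, a filter on low counts that kept 35955 regions, the quasi-likelihood F test and Benjamini-Hochberg adjustment over all regions at 0.05. Counts over these regions totalled 18181192 to 30435735 per library. Read equivalents and counts are not independent molecules, so intervals cover counting error only. Libraries of an H3K4me3 group are separate pools per the labels. CPM are counts scaled to a common library size after TMM. The interval and the fit were tested on simulated data.

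Named are the 10 regions with most WT signal and the 10 densest, the 8 lowest and 8 highest KO shares in the stronger part of the regions, up to 3 members of each of 18 gene lists, any Kdm5 gene, and the 4 largest H3K4me3 rises and falls per comparison. Further list members are given with their list, and some named regions are not reported here. Members and lists were chosen with earlier results of these data known. Motif strings were chosen from general knowledge after the data had been seen, the YY1 and NRF1 strings as shortened forms of their motifs. Alternatives were other scalings, filters and distances, DESeq2 1.42.0, fits of the compared groups only, a replicate block and leaving out each H3K4me3 library. Figures were drawn with matplotlib 3.10.9.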

Additional observations from a re-analysis of the deposited data

Results flagged for a closer look

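At 5 H3K4me3 regions with Kdm5C the change in KO under standard conditions differed from the change in ifKO by a test of the difference itself (edgeR, adjusted over all regions). At 0610040J01Rik the difference was 0.65 (log2, adjusted p = 0.011): H3K4me3 was 29.2 and 30.7 CPM in KO against 21.1 and 22.2 CPM in WT, and 18.5 and 22.4 CPM in ifKO against 21.9 and 24.5 CPM in ifWT. At 2310015A10Rik it was 0.55 (adjusted p = 0.00233), with 55.4 and 52.7 CPM in KO against 33.6 and 36.4 CPM in WT, and 49.7 and 50.7 CPM in ifKO against 46.2 and 49.1 CPM in ifWT. Gm46142 differed by 0.48 (adjusted p = 0.0465), Jag2, a Notch ligand gene, by 0.47 (0.00582) and Slk, a kinase gene, by 0.34 (0.0465). For Jag2 the values were 57.4 and 59.3 CPM in KO against 49.2 and 45.3 CPM in WT, and 65.1 and 72.4 CPM in ifKO against 79.5 and 74.1 CPM in ifWT. The call at Gm46142 was lost with RLE (adjusted p = 0.0585), DESeq2 (0.103), the compared groups only (0.128), a replicate block (0.0784) and without any 1 of the 8 libraries (0.0573 to 0.211). The call at Jag2 was lost without WT standard library 2 (adjusted p = 0.107), and that at 0610040J01Rik without WT standard library 1 (0.0758) or 2 (0.0551), ifKO library 1 (0.0863) or ifWT library 2 (0.102). For the difference at Slk the values under the alternatives are not given here. KO and ifKO mice also differ in strain background, and line and background cannot be told apart. In all, 9 of 2314 regions differed in this direction and none in the other, with 130 at an unadjusted p under 0.05, and DESeq2 called 3 and none.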

How the results depend on the processing

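Without a scaling of the libraries the KO sum was 22.2% of WT. Scaling to equal sums sets it to 100% by construction. Scaling on a weakest quartile group of regions multiplies KO by 5.92 and gives 132%. That group is neither the lowest by WT signal (23.5% left) nor the lowest by WT density (33.05% left). How it was ordered, and whether KO values entered the ordering, is not stated here. The loss over all regions therefore rests on the unscaled values. The value was 23.6% without the strongest 10% of regions and 20.3% as a median. Under these 2 scalings 587 and 452 regions were 2-fold lower and 259 and 511 were 2-fold higher, against 2150 and 1 unscaled. No region was 2-fold higher with at least 10 WT read equivalents. Among all regions, without this minimum, 2 were 1.5-fold higher. The median H3K4me1 share was 92.2% with equal sums, against 56.6%. List and position counts were within 1.5 times at 1 and 5 kb.

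For H3K4me3, lower calls under standard conditions numbered 30 with library totals and 11 to 45 with a library left out, and higher calls 131 to 183. After novelty there were 86 lower calls with library totals, 381 with the compared groups only and 21 to 193 with a library left out, and 141 to 169 higher calls. In ifKO there were 8 lower calls with the compared groups only and 0 to 81 with a library left out, and 73 to 125 higher calls. For KO minus ifKO, 5 regions were higher with RLE, 3 with DESeq2, 3 with the compared groups only (1 lower) and 1 to 14 with a library left out (0 lower). Over all tested regions, same-numbered libraries showed no joint deviation (correlations -0.00359, 0.00878 and -0.0357). No pairing by number was therefore seen, and a batch shared by such libraries was not tested. A replicate block gave 62 lower calls under standard conditions, 132 after novelty, 14 in ifKO, and 5 higher and 1 lower for KO minus ifKO.

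Of the named regions and list members called, 21 of 35 under standard conditions, 20 of 32 after novelty, 11 of 21 in ifKO and 1 of 4 for KO minus ifKO kept their call under all alternatives run, and no direction reversed. A left-out library leaves 1 in its group, assumed to vary like the others. The groups did not vary alike. Spread between the 2 libraries of a group, as chi-square divided by degrees of freedom, was 8.81 in ifKO and 5 in ifWT. In the KO and WT groups it was 2.39 to 2.92. In the fit over all 12 libraries, adjusted p for ifKO and for KO minus ifKO rest partly on groups with less spread. With the compared groups only, ifKO calls went from 37 to 8 lower and from 130 to 111 higher. Causes were not tested. Read equivalents near 0 limit KO shares of single regions.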
